A study of Mus musculus with 6 samples.

Results

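The genes described here encode the secreted and cell surface core of insulin-like growth factor (IGF) signaling in the embryonic mouse ureter. They were chosen by symbol and comprise the 2 ligand genes *Igf1* and *Igf2*, the 2 receptor genes *Igf1r* and *Igf2r*, and the 6 binding protein genes *Igfbp2* to *Igfbp7*, which makes 10 of the 56748 gene identifiers that were counted. RNA-Seq was performed on explants of wildtype ureters from NMRI embryos, an outbred mouse stock, dissected at E12.5. They were cultured for 18 h on transwell membranes in DMEM/F12-based medium, for which the labels name no serum. The methods of the study add fetal calf serum except in cultures for microarrays and RT-qPCR. Cultures for RNA-Seq are not named there, so whether these samples had serum is open. In the LiCl group the medium contained 15 mM LiCl, an inhibitor of GSK3 that is used to activate WNT signaling through CTNNB1, and in the control group it contained water. Each group had 3 samples. The number of ureters in a sample and the sex of the embryos are not given in the sources used here. The standard deviations (SD) below therefore measure the spread between these samples. The standard errors were taken from the edgeR fit, whose estimate of the spread draws on all tested genes. The 10 genes were drawn up with LiCl and control values of these data already known. Their differences between the groups are therefore given as a description, with a standard error and without a p-value.

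IGF1 and IGF2 bind to the receptor tyrosine kinase IGF1R and through it activate the PI3K-AKT and MAPK pathways, which promote growth and survival of embryonic tissues. AKT in turn phosphorylates and inhibits GSK3 and retains FOXO transcription factors in the cytoplasm. IGF2R removes IGF2 from the cell surface and directs it to lysosomes, while the IGF-binding proteins hold the ligands in the extracellular space, extend their lifetime, and release them upon proteolysis.

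The libraries held between 28473436 and 31266945 counts, and all 10 genes were among the 18188 that passed the filter on low counts. Each gene was measured as CPM, the count relative to the library total scaled by TMM factors between 0.982 and 1.03, for comparing samples, and as FPKM, which also divides by transcript length, for comparing genes. The summed CPM of 10 ureteric mesenchyme markers was 4824 to 5319 in the control and 3608 to 3952 after LiCl, and that of 10 ureteric epithelium markers was 1324 to 1642 and 1006 to 1050. At an adjusted p under 0.05 (edgeR), 6 of the mesenchyme markers fell and 0 rose. Of the epithelium markers 7 fell and 1, *Epcam*, rose. Of all tested genes 22.4% fell and 21.1% rose. *Col1a1* alone held 2614 CPM of the mesenchyme sum in the control and 1984 CPM after LiCl on average. No marker of the tissue was at 0 in all samples. Markers of endothelium (550 to 702 and 506 to 626 CPM in control and LiCl), macrophages (70.5 to 115 and 60.8 to 82.5), kidney progenitors (89.0 to 95.3 and 74.7 to 86.8), neural crest and glia (210 to 231 and 185 to 230) and erythroid cells (468 to 686 and 612 to 946) were also present. The skeletal muscle marker sum was 5.57 to 8.47 CPM in the controls but 33.4, 6.48 and 69.6 CPM in LiCl replicates 1, 2 and 3. Fewer cells of a type, less RNA per cell and altered expression of single marker genes cannot be told apart in such bulk samples. The part of these marker shifts in the values below was not tested.

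Per transcript length, *Igfbp5* and *Igfbp4* were the most abundant of these genes in control ureters, and the other binding protein genes were spread over the order. *Igfbp5* had the highest level with 173 ± 12.6 FPKM (SD, n = 3), followed by *Igfbp4* with 122 ± 5.44 FPKM and *Igfbp3* with 73.4 ± 9.38 FPKM. *Igf2r* lay at 62.8 ± 11.3 FPKM, *Igfbp2* at 37.5 ± 4.37 FPKM, *Igf2* at 33.3 ± 3.19 FPKM and *Igfbp7* at 25.0 ± 2.86 FPKM. *Igf1r* with 14.8 ± 2.26 FPKM, *Igf1* with 4.00 ± 0.315 FPKM and *Igfbp6* with 0.434 ± 0.0987 FPKM closed the order. The sample ranges of *Igfbp3* and *Igf2r*, and those of *Igfbp2* and *Igf2*, overlapped in the control, so that the order within these pairs is not resolved. The sample ranges of the other neighbours were separated. The FPKM of *Igf2* may be too low because of shared exon bases, as given below, so its place in the order is open. After LiCl the order of the first 8 genes was the same. *Igf2r* (56.3 ± 5.40 FPKM) and *Igfbp2* (56.0 ± 3.27 FPKM) then overlapped, *Igfbp2* no longer overlapped with *Igf2* (34.2 ± 2.49 FPKM), and *Igfbp6* (4.67 ± 1.08 FPKM) lay at the level of *Igf1* (3.00 ± 0.997 FPKM).

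**Figure D1:**
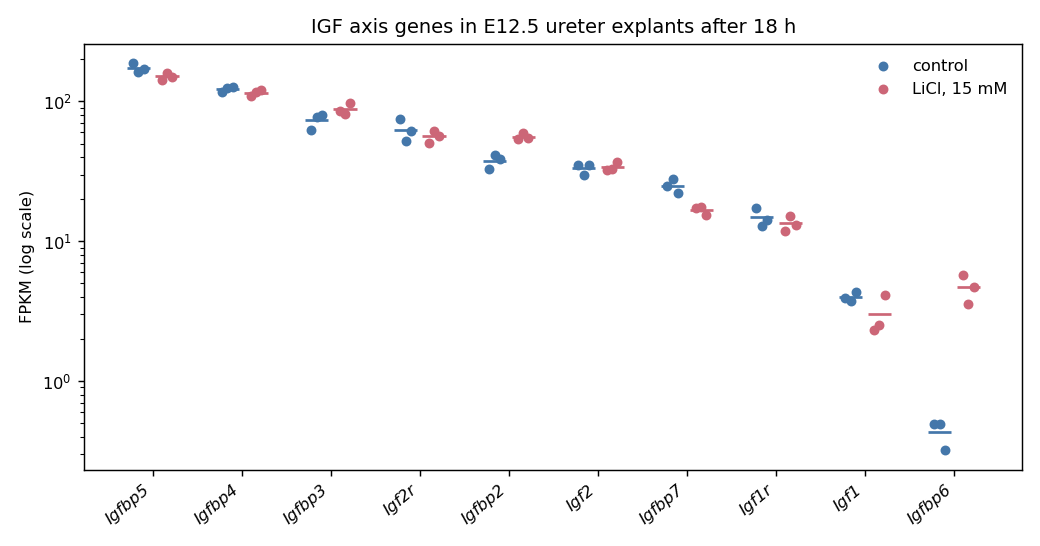
FPKM of the 10 genes (vertical axis, log scale) in each control and LiCl sample, with bars at the mean of the 3 samples. Levels span from 0.320 FPKM for *Igfbp6* in control replicate 3 to 187 FPKM for *Igfbp5* in control replicate 1, and *Igfbp6* is the gene whose groups lie farthest apart.

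*Igf1*, the ligand that mediates much of growth hormone action after birth and acts locally in the embryo, was measured at 39.7, 37.0 and 43.4 CPM in control replicates 1 to 3 and at 23.0, 25.2 and 40.9 CPM in LiCl replicates 1 to 3. LiCl replicates 1 and 2 lay below all controls, whereas LiCl replicate 3 lay within their range, and the coefficient of variation was 7.98% in the control and 33.0% in the LiCl group. The log2 fold change (LiCl over control) was -0.43 with a standard error (SE) of 0.18. It was -0.27 without LiCl replicate 1, -0.33 without LiCl replicate 2 and -0.73 without LiCl replicate 3, so that its size depended on single samples. LiCl replicate 3 had the highest skeletal muscle marker sum. LiCl replicate 1, which had the next highest sum, had the lowest *Igf1* level, and the part of these markers in the *Igf1* values was not tested.

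*Igf2*, the main fetal growth ligand and a paternally expressed imprinted gene, was measured at 205, 170 and 202 CPM in the controls and at 186, 189 and 211 CPM after LiCl. The groups overlapped, and the log2 fold change was 0.02 (SE 0.08), or between -0.05 and 0.07 without single samples. Of the 5723 exon bases of *Igf2* in the GENCODE vM21 annotation, 3596 (62.8%) also belong to *Gm49394* on the same strand. *Gm49394* had 0 counts in every sample. How reads on bases of more than 1 gene were treated is not given in the sources used here. If such reads were dropped, the CPM and log2 fold change of *Igf2* would rest on its other exon bases. Since the deposited FPKM value of *Igf2* divides by all 5723 bases, its level relative to the other genes may be too low. The neighbouring *H19*, the maternally expressed noncoding RNA of the same imprinted domain, was measured at 5432 ± 176 CPM in the control and 5655 ± 85.7 CPM after LiCl, and did not pass the test (log2 fold change 0.06, edgeR quasi-likelihood test with Benjamini-Hochberg adjustment over all genes, adjusted p = 0.23). The antisense gene *Igf2os*, which shares 98 exon bases with *Igf2* on the opposite strand, rose from 19.6 ± 1.01 to 23.7 ± 1.04 CPM (log2 fold change 0.28, edgeR adjusted p = 0.0095). Without LiCl replicates 1 and 3, the samples with raised muscle markers, *Igf2os* did not pass (log2 fold change 0.25, edgeR adjusted p = 0.14). The summed FPKM of both ligand genes was 37.3 ± 3.44 in the control and 37.2 ± 3.49 after LiCl. As most of this sum is *Igf2*, it may be too low as well because of the shared exon bases. Its comparison between the groups has the limit given for *Igf2*.

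*Igf1r*, the signaling receptor of both ligands, was measured at 295, 217 and 242 CPM in the controls and at 200, 255 and 220 CPM in the LiCl samples. The groups overlapped, with a log2 fold change of -0.16 (SE 0.12). It was -0.03 without control replicate 1, -0.25 without control replicate 2, -0.08 and -0.26 without LiCl replicate 1 or 2, and 0.03 without both LiCl replicates 1 and 3, so that single samples of either group moved it. *Igf2r*, the cation-independent mannose 6-phosphate receptor, was measured at 709, 490 and 577 CPM in the controls and at 472, 573 and 526 CPM after LiCl. These groups overlapped as well, and the log2 fold change was -0.18 (SE 0.12). It was -0.03 without control replicate 1, -0.29 without control replicate 2, -0.10 without LiCl replicate 1, and -0.04 without both LiCl replicates 1 and 3. *Airn*, the noncoding RNA transcribed antisense to *Igf2r* that silences its paternal allele in many mouse tissues, fell from 42.8 ± 7.01 to 26.3 ± 4.24 CPM (log2 fold change -0.70, SE 0.14, edgeR adjusted p = 0.0030). Without LiCl replicates 1 and 3 the value of *Airn* was -0.47, with an adjusted p of 0.072. In the annotation the exons of *Igf2r* share no base with another gene.

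Both receptor genes differed more between samples of the same condition than between the groups. *Igf2r* had a coefficient of variation of 18.6% in the control and *Igf1r* one of 15.9%, compared to 3.91% for *Igfbp4*. In log2 CPM, *Igf2r* deviated from its group mean by 0.28, -0.26 and -0.02 in control replicates 1 to 3 and by -0.15, 0.13 and 0.01 in LiCl replicates 1 to 3, and *Igf1r* by 0.24, -0.20 and -0.04 and by -0.16, 0.19 and -0.03. Both were thus highest in control replicate 1 and lowest in control replicate 2, and within the LiCl group highest in replicate 2. The 1493 tested genes with more than 10000 exon bases had median deviations of 0.09, -0.11 and 0.02 in the controls and of -0.06, 0.06 and 0.01 after LiCl. Of the receptor genes, *Igf1r* with 16791 bases belongs to this class. *Igf2r* with 9308 bases belongs to the next shorter class of 3390 genes, whose median deviations were smaller, with 0.03, -0.04 and 0.01 in the controls and -0.01, 0.01 and 0.00 after LiCl. *Igfbp5* with 6006 bases had the order of the receptor genes, with deviations of 0.12, -0.10 and -0.03 and of -0.08, 0.09 and -0.01. *Igf1* with 9904 bases departed from this order, being highest in replicate 3 of each group. The part of transcript length in the spread of these genes was not tested.

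**Figure D2:**
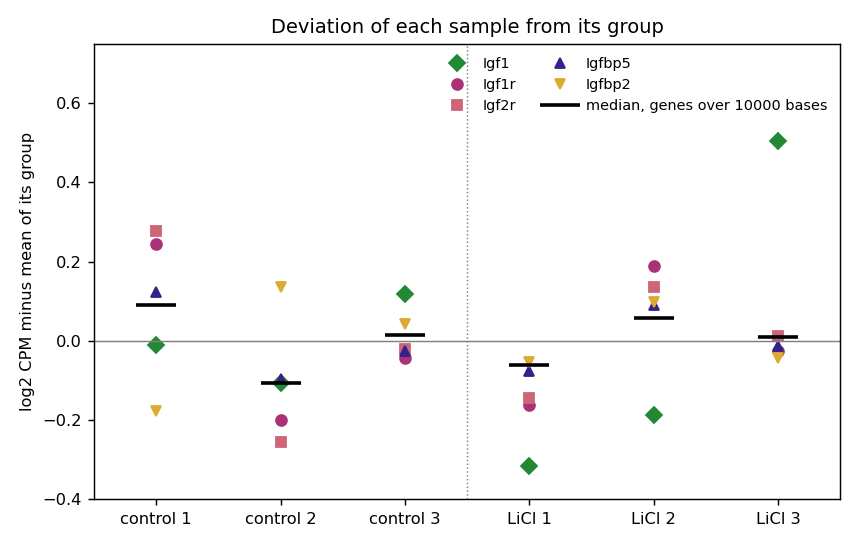
Deviation of each sample from the mean of its own group in log2 CPM for 5 genes, the 3 longest (*Igf1*, *Igf1r*, *Igf2r*) and the shorter *Igfbp5* and *Igfbp2*, chosen after their values were seen. Black lines mark the median deviation of the 1493 tested genes over 10000 bases. *Igf1r*, *Igf2r* and *Igfbp5* lie on the same side as the black line in control replicates 1 and 2 and LiCl replicates 1 and 2, whereas *Igf1* reaches 0.50 in LiCl replicate 3.

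Among the binding proteins, *Igfbp6* had the largest difference between the groups. IGFBP6 binds IGF2 with a marked preference over IGF1. Its gene was counted 16, 17 and 11 times in control replicates 1 to 3 and 198, 111 and 147 times in LiCl replicates 1 to 3, which corresponded to 0.557, 0.548 and 0.359 CPM and to 6.37, 3.97 and 5.21 CPM. Every LiCl sample thus lay far above every control. The mean was 0.488 ± 0.112 CPM in the control and 5.19 ± 1.20 CPM after LiCl (SD, n = 3), and the log2 fold change was 3.40 (SE 0.26), or 10.6-fold. LiCl replicate 2, whose muscle marker sum was within the control range, had 3.97 CPM, and the log2 fold change without LiCl replicates 1 and 3 was 3.03. Even after LiCl, *Igfbp6* remained a low component of the binding proteins in FPKM.

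*Igfbp2*, which encodes a major binding protein of embryonic tissues and fetal serum, was measured at 61.5, 76.6 and 71.8 CPM in the controls and at 99.3, 110 and 100.1 CPM after LiCl. The groups did not overlap. The mean was 70.0 ± 7.73 CPM in the control and 103 ± 6.22 CPM after LiCl, and the log2 fold change was 0.56 (SE 0.08). *Igfbp3*, whose product is the main IGF carrier in adult serum and forms a ternary complex with the acid-labile subunit, was measured at 200.2, 242 and 255 CPM in the controls and at 269, 256 and 302 CPM after LiCl. Its groups were separated only by the gap between 254.7 CPM in control replicate 3 and 255.7 CPM in LiCl replicate 2. The log2 fold change was 0.25 (SE 0.09), or 0.15 without control replicate 1 and likewise without LiCl replicates 1 and 3.

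*Igfbp7*, which encodes a secreted protein of vessels and stroma with low affinity for IGFs, was the binding protein gene with the largest difference in the opposite direction. It was measured at 30.7, 33.9 and 27.0 CPM in the controls and at 21.0, 21.4 and 18.7 CPM after LiCl, and the groups did not overlap. The log2 fold change was -0.58 (SE 0.09). In the annotation 85 of its exon bases, or 7.03%, are shared with *Polr2b* on the opposite strand. Endothelial markers, of which 1 of 8 fell and none rose at the threshold used for single genes, are given above for both groups.

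*Igfbp5*, the gene of a binding protein that attaches to extracellular matrix, had the highest FPKM of the 10 genes. The place of *Igf2* in that order is open, as given above. *Igfbp5* was measured at 1145, 982 and 1031 CPM in the controls and at 859, 964 and 898 CPM after LiCl. The groups did not overlap, with a gap between 964 CPM in LiCl replicate 2 and 982 CPM in control replicate 2, and the log2 fold change was -0.22 (SE 0.06), or -0.12 without LiCl replicates 1 and 3. *Igfbp4*, whose product inhibits IGF action until it is cleaved by PAPP-A, was measured at 521, 552 and 562 CPM in the controls and at 482, 512 and 531 CPM after LiCl. The groups of *Igfbp4* overlapped, and the log2 fold change was -0.10 (SE 0.05). Of the 10 genes it had the smallest relative spread within both groups. *Igfbp5* was lower in every LiCl sample than in every control. The same held for the summed markers of ureteric mesenchyme, of ureteric epithelium and of kidney progenitors. The part of these marker sums in the values of *Igfbp5* and *Igfbp4* was not tested.

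**Figure D3:**
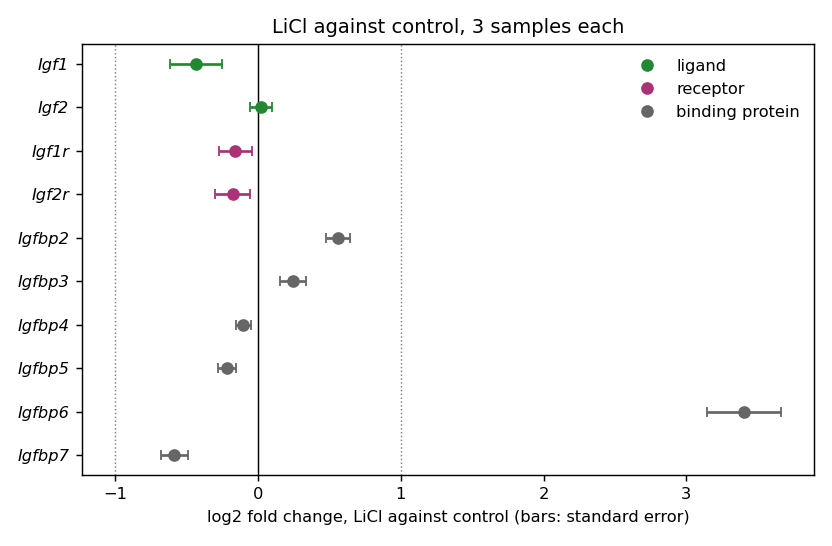
Log2 fold change (LiCl over control, edgeR) of each of the 10 genes (points, coloured by role) with its standard error (bars). The axis is in log2 units, 0 marks equal levels, dotted lines mark -1 and 1, and *Igfbp6* stands at 3.40 while the other 9 genes lie between -0.58 and 0.56.

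Over all 18188 tested genes, 7.33% met the call rule in either direction, which asks for a log2 fold change beyond 1 besides an adjusted p under 0.05, 2.74% being higher and 4.59% lower after LiCl. Among the 10 genes 1 met it, *Igfbp6*, and none was lower. With the adjusted p alone, which 43.5% of all tested genes met, *Igfbp2* and *Igfbp6* were higher and *Igfbp5* and *Igfbp7* lower. The groups did not overlap for 54.2% of all tested genes (26.4% with higher and 27.8% with lower values after LiCl) and for 5 of the 10, namely *Igfbp2*, *Igfbp3* and *Igfbp6* with higher and *Igfbp5* and *Igfbp7* with lower values after LiCl. The median log2 fold change was -0.13 for the 10 genes and -0.01 for all tested genes. As the genes were picked with this contrast known, these counts describe them and support nothing further.

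Although single binding protein genes differed, their sum was nearly the same in both groups. The FPKM of *Igfbp2* to *Igfbp7* added up to 424, 434 and 438 in the controls and to 415, 439 and 442 after LiCl, with means of 432 ± 6.94 and 432 ± 14.6 (SD, n = 3). The difference of the means was 0.135 FPKM, far below the spread within either group. The sum weighs each gene by its FPKM and is thus set largely by *Igfbp5*, *Igfbp4* and *Igfbp3*.

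The composition of this sum differed. *Igfbp5* made up 40.2% ± 3.50 in the control and 35.0% ± 1.38 after LiCl, and the share of *Igfbp4* was 28.3% ± 0.820 and 26.7% ± 0.548. *Igfbp2* made up 8.67% ± 0.911 in the control and 13.0% ± 0.656 after LiCl, and *Igfbp3* 17.0% ± 1.91 and 20.4% ± 1.68. The share of *Igfbp7* was 5.79% ± 0.689 and 3.91% ± 0.358, and that of *Igfbp6* 0.101% ± 0.0239 and 1.09% ± 0.284. The nearest samples of control and LiCl had shares of 37.5% and 36.5% for *Igfbp5* and of 27.34% and 27.28% for *Igfbp4*. For *Igfbp3* they had shares of 18.4% and 18.6%. For each of these genes the gap was below the SD within either group. As the shares add up to the whole, they are not independent of each other.

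**Figure D4:**
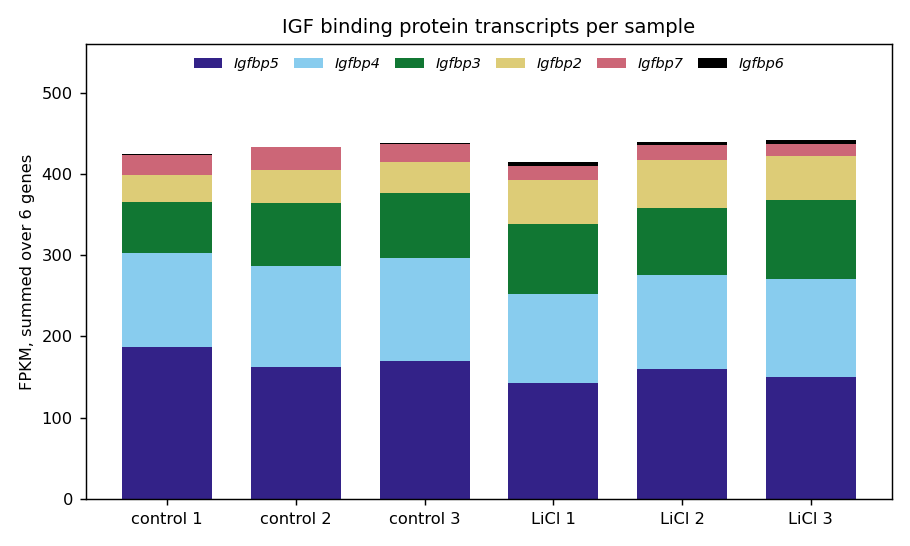
Summed FPKM of the 6 binding protein genes in each sample, stacked by gene (vertical axis in FPKM, from 0). The columns reach between 415 and 442 FPKM in all 6 samples, while the *Igfbp2* segment is larger in the LiCl samples and the *Igfbp5* segment smaller.

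To show the DNA next to the start sites of the genes with the largest differences, the 250 bases before the RefSeq start of *Igfbp6*, *Igfbp2* and *Igfbp7* are given on the strand of the gene, from RefSeq on build GRCm38.p6. They lie at chr15:102143936-102144185 (plus strand), chr1:72824230-72824479 (plus strand, the upstream of 2 start sites) and chr5:77408046-77408295 (minus strand). Capitals mark matches on either strand to a GC box (GGGCGG) or a TATA box (TATAAA), which were searched together with the TCF/LEF core (CTTTGA or CTTTGT) and a FOXO motif (TGTTTAC).
*Igfbp6*: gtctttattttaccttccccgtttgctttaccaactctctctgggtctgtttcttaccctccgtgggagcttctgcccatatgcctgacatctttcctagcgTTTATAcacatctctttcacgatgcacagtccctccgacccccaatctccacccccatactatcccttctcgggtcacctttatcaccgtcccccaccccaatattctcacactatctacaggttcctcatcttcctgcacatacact
*Igfbp2*: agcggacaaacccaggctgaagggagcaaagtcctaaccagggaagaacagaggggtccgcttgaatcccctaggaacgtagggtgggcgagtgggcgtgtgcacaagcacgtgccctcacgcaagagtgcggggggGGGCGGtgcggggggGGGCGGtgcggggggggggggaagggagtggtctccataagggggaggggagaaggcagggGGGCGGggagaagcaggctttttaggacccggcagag
*Igfbp7*: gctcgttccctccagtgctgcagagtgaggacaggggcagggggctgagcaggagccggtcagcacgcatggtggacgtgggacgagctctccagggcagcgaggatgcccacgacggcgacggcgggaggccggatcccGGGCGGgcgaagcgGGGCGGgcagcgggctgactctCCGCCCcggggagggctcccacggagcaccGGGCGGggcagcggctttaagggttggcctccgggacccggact
The nearest transcript start of *Igfbp6* in GENCODE vM21 lies 176 bases downstream of the RefSeq start used here, that of *Igfbp2* 23 bases and that of *Igfbp7* 4 bases downstream.

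The 3 stretches differ in base composition. The windows used for this also include the first 50 bases from the RefSeq start. *Igfbp6* had 49.7% G and C and 8 CpG dinucleotides, while *Igfbp2* had 67.0% and 18 and *Igfbp7* 73.3% and 33. The nearest GENCODE vM21 start of *Igfbp6* lies 176 bases downstream, beyond its window. By that annotation its window is not placed like those of *Igfbp2* and *Igfbp7*. The median over 32851 such windows of all genes was 52.7% and 7. The GC box occurred 3 times before *Igfbp2* and 4 times before *Igfbp7* and was not found before *Igfbp6*, where the only match was a TATA box on the opposite strand at -148. The 10 genes have 14 windows, 4 of them for *Igf2* and 2 for *Igfbp2*. A GC box was found in 6 of the 14 compared to 35.7% of all windows, a TATA box in 2 compared to 13.6%, a TCF/LEF core in 3 (those of *Igf1* and *Igf1r* and 1 of *Igf2*) compared to 31.2%, and the FOXO motif in none compared to 3.65%. These are matches of letters in short windows and say nothing of binding in the ureter.

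Of 10 further genes of the IGF axis, 6 passed the filter on low counts, of which 1 rose and 1 fell at an adjusted p under 0.05, compared to 21.1% and 22.4% of all tested genes. *Igf2bp1*, an RNA-binding protein of embryonic tissues that binds *Igf2* mRNA, rose from 188 ± 4.67 to 234 ± 13.8 CPM (log2 fold change 0.31, SE 0.05, edgeR adjusted p = 0.00137). Its paralog *Igf2bp3* fell from 114 ± 5.95 to 93.0 ± 5.19 CPM (log2 fold change -0.30, edgeR adjusted p = 0.00307), but did not pass without LiCl replicates 1 and 3 (log2 fold change -0.22, edgeR adjusted p = 0.11). The insulin receptor gene *Insr* was at 113 ± 11.2 and 109 ± 14.3 CPM and did not pass the test (edgeR adjusted p = 0.71). *Igfbp1* and *Igfals*, the gene of the acid-labile subunit, had at most 13 counts in any sample and were not tested, and the insulin genes *Ins1* and *Ins2* had 0 counts in all samples.

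Proteases that cleave the binding proteins, and inhibitors of these proteases, were represented by 9 tested genes. Of these 2 rose and 3 fell, beside 21.1% and 22.4% of all tested genes. The largest rise was that of *Stc2*, an inhibitor of the PAPP-A proteases, from 5.64 ± 0.550 to 11.2 ± 0.712 CPM (log2 fold change 0.99, SE 0.11, edgeR adjusted p = 0.000143). The largest fall was that of *C1ra*, a complement protease, from 2.35 ± 0.914 to 1.27 ± 0.171 CPM (log2 fold change -0.89, SE 0.29, edgeR adjusted p = 0.036). It did not pass without control replicate 1 (adjusted p = 0.13), control replicate 2 (0.061), or LiCl replicate 1, 2 or 3 (0.051, 0.094 and 0.089). The others were chosen after their values were seen. *Pappa*, which encodes the protease of IGFBP4, was at 126, 81.1 and 98.6 CPM in the controls and at 61.7, 75.2 and 69.2 CPM after LiCl (log2 fold change -0.57, SE 0.14, edgeR adjusted p = 0.0099). Its level varied in the controls in the order of *Igf1r* and *Igf2r*, and without LiCl replicates 1 and 3 it did not pass (adjusted p = 0.16). *Adam12*, a metalloprotease that cleaves IGFBP3 and IGFBP5, fell from 94.8 ± 9.39 to 62.0 ± 6.66 CPM (log2 fold change -0.61, edgeR adjusted p = 0.000688). The serine protease gene *Htra1* rose from 2.25 ± 0.181 to 3.88 ± 0.454 CPM (log2 fold change 0.78, edgeR adjusted p = 0.00386) and did not pass without LiCl replicates 1 and 3 (adjusted p = 0.13). The list was divided in direction, and its median was -0.20 on the log2 scale beside -0.01 for all tested genes.

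Of 29 adaptors and components of the PI3K-AKT-mTOR cascade, all were tested and 7 rose and 6 fell, beside 21.1% and 22.4% of all tested genes, and the median on the log2 scale was 0.02. The largest rise that passed was that of *Foxo1*, a transcription factor that AKT inactivates, from 65.2 ± 3.99 to 104.0 ± 4.80 CPM (log2 fold change 0.67, SE 0.06, edgeR adjusted p = 3.4e-05). The largest fall was that of *Pik3r3*, a regulatory subunit of PI3K, from 78.3 ± 3.09 to 57.7 ± 1.44 CPM (log2 fold change -0.44, edgeR adjusted p = 0.000152). Without LiCl replicates 1 and 3, 4 genes of this list rose and 1 fell. A further list held 14 genes known as targets of FOXO factors, of which *Insr* and *Irs2* were also in lists above. The fall of *Irs2* therefore counts in both. Of the 14 genes, 3 rose and 4 fell, beside 21.1% and 22.4% of all tested genes, with a median of -0.08. Among them *Cited2*, a transcriptional coregulator, fell from 67.9 ± 4.18 to 32.2 ± 1.81 CPM (log2 fold change -1.08, SE 0.07, edgeR adjusted p = 3.5e-06), and the cell cycle inhibitor gene *Cdkn1b* rose from 73.4 ± 4.28 to 110.5 ± 0.821 CPM (log2 fold change 0.59, edgeR adjusted p = 3.5e-05). *Txnip*, a regulator of glucose uptake that was chosen after its values were seen, rose as well, from 173 ± 1.57 to 242 ± 6.49 CPM (log2 fold change 0.48, edgeR adjusted p = 3.3e-05).

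Of 17 imprinted growth genes, 4 rose and 6 fell, beside 21.1% and 22.4% of all tested genes, and the median was -0.10 on the log2 scale. Without LiCl replicates 1 and 3, 2 rose and 2 fell. *Meg3*, a maternally expressed noncoding RNA, had the largest fall, from 651 ± 22.9 to 352 ± 56.6 CPM (log2 fold change -0.89, SE 0.10, edgeR adjusted p = 0.000148). *Plagl1*, a zinc finger factor known to act on an imprinted gene network that includes *Igf2* and *H19*, had the largest rise, from 195 ± 13.9 to 246 ± 13.0 CPM (log2 fold change 0.33, edgeR adjusted p = 0.00258). *Peg10*, chosen after its values were seen, fell from 350 ± 29.8 to 228 ± 45.3 CPM (log2 fold change -0.62, edgeR adjusted p = 0.00417). Among 8 genes of the mannose 6-phosphate sorting pathway, for which IGF2R is a receptor, 5 rose and 2 fell. Of all tested genes 21.1% rose and 22.4% fell, and the median of this list was 0.24. *Gnptg*, a subunit of the enzyme that marks lysosomal proteins, had the largest rise, from 20.5 ± 1.64 to 38.3 ± 1.46 CPM (log2 fold change 0.90, SE 0.07, edgeR adjusted p = 1.7e-05). The sorting receptor gene *Sort1* fell from 169 ± 13.2 to 126 ± 6.73 CPM (log2 fold change -0.42, edgeR adjusted p = 0.000859).

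**Figure D5:**
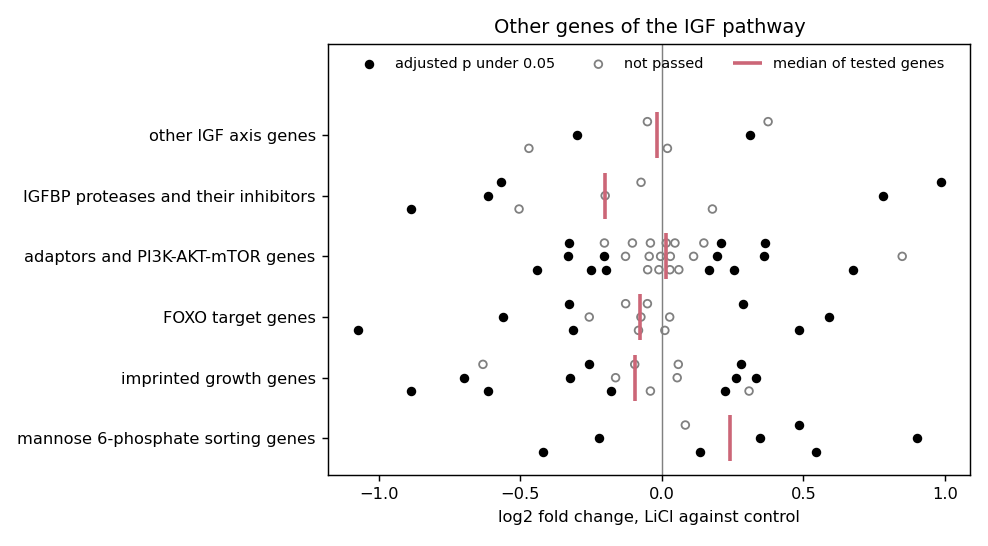
Log2 fold change (LiCl over control) of every tested gene in the 6 lists related to IGF signaling, with each list's median as a line. Each gene has 1 point in every list that holds it, and *Insr*, *Irs2* and *Grb10* are in more than 1 list. Filled points passed the test (adjusted p under 0.05), and *Cited2* is the only gene of these lists beyond a log2 fold change of 1 in either direction.

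Finally, genes with expression most like the extremes of the set were sought among the 12256 genes that reached 5 CPM on average, by the Euclidean distance of centred log2 CPM over the 6 samples. Nearest to *Igfbp6* were *Tppp3* (distance 0.411), *Eda2r* (0.720), *Rfx2* (0.739), *Trim66* (0.875) and *Cd44* (0.976), with log2 fold changes between 2.54 and 3.78. *Tppp3* was at 9.10 CPM in the control and at 84.3 CPM after LiCl. Nearest to *Igfbp7* were *Grhpr* (distance 0.0998), *Pawr* (0.136), *Rdh14* (0.147), *Mmaa* (0.150) and *Fam160a1* (0.150), with log2 fold changes between -0.62 and -0.50. These genes share the 6 libraries with the members, and the distances describe their pattern in these samples.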

How the data were processed

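Gene counts (raw counts, GRCm39) and FPKM values per sample were deposited by the authors. Poly(A)-selected, stranded libraries were trimmed and counted with featureCounts 2.0. The processing notes name fastp 0.23 and STAR 2.7 as aligner, whereas the methods name HISAT2. Annotation release, strand setting and the making of the FPKM are not given in the sources used here. Gene lengths were derived from the deposited FPKM and the counts scaled by DESeq2 size factors, with the geometric mean of the library totals. They were whole numbers (within 0.01) for 100% of 13480 genes with over 50 counts in every sample, and equal to GENCODE vM21 exon lengths for the 10 genes. The deposited FPKM thus match counts scaled in this way.

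After filterByExpr and TMM scaling, the quasi-likelihood test of edgeR 4.0.16 (R 4.3.3) was applied to the counts, and p-values were adjusted over 18188 genes (Benjamini-Hochberg). The SE is the absolute log2 fold change divided by the square root of the F statistic of this test. A call required a log2 fold change beyond 1 in either direction and an adjusted p under 0.05. DESeq2 1.42.0 on the counts and limma 3.58.1 on log2(FPKM + 1) served as alternatives. An exact permutation test of 3 against 3 samples cannot go below p = 0.1. Members and gene lists were chosen with earlier results of these data known. Named were all members, in each list the called genes and those with the largest rise and fall at the adjusted p, overlapping genes, and 5 neighbours of 2 members. Scripts were tested on simulated counts.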

Additional observations from a re-analysis of the deposited data

How the results depend on the processing

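Results were recomputed with DESeq2, without the filter, with library sizes alone, with limma on FPKM, and without single samples. The 10 genes were chosen with this contrast known, so how often they met the adjusted p is a description and no support. Of 17 fits, *Igfbp2* and *Igfbp6* met it as higher and *Igfbp7* as lower in 17, *Igfbp5* as lower in 10, *Igfbp3* as higher in 5, *Igf1* as lower in 4 and *Igf2r* as lower in 1, without control replicate 2. *Igfbp5* did not pass without control replicate 1 or 3, or without LiCl replicate 1 or 3. The *Igfbp6* log2 fold change was 3.23 to 3.57 without single samples, but 1.97 in limma on log2(FPKM + 1), with or without the filter on low FPKM, since the added 1 exceeds its control level. Genes called higher and lower over the whole table (498 and 835) numbered 177 and 141 in limma on log2(FPKM + 1), 171 and 139 there without the filter, and 3844 and 4071 with no fold change minimum, and those called lower numbered 430 with log2(FPKM + 0.1). With no fold change minimum, 2 members were called higher and 2 lower. Without LiCl replicates 1 and 3, which leaves 1 LiCl sample assumed to vary like the controls, the lists had 0 other IGF axis genes lower, 1 protease gene higher and 1 lower, 4 adaptor and PI3K-AKT-mTOR genes higher and 1 lower, 2 FOXO targets lower, and 2 imprinted genes higher and 2 lower. In limma without the filter, 1 protease gene was lower and 2 imprinted genes higher. The summed FPKM of the binding proteins kept a log2 ratio between -0.017 and 0.029. Of 320 values of other named genes, 15 lost the adjusted p and none changed direction past it. The cause of these shifts was not tested. Deviations of same-numbered samples had correlations of -0.08, -0.31 and 0.15. Differently numbered samples reached 0.33 (control replicate 2 with LiCl replicate 1) and -0.31 (control replicate 3 with LiCl replicate 1). With 3 samples per group these values cannot decide whether the numbers pair the samples, and the labels do not say. With the replicate block, *Igfbp2*, *Igfbp3* and *Igfbp6* were higher and *Igf1* and *Igfbp7* lower at the adjusted p, and 478 higher and 801 lower genes were called. The low counts of *Igfbp6* in the controls (11 to 17) limit its fold change.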
